A study of Homo sapiens with 12 samples.

Results

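The 10 genes described here encode the coat of COPII vesicles and the GTPases that recruit it: SAR1A, SAR1B, SEC23A, SEC23B, SEC24A, SEC24B, SEC24C, SEC24D, SEC13 and SEC31A. They were chosen by name as the known subunits of that coat, with earlier results of these data known, and are 10 of the 26364 genes in each deposited table. All 10 passed the filter on low values and were tested. RNA was sequenced from HMLE, an immortalised human mammary epithelial line, in 12 libraries. They form 4 groups of 3 numbered libraries. The labels do not say whether these came from separate cultures, so p-values measure only the spread between these libraries, which may be technical. HMLE-Twist is the line labelled as having undergone EMT (epithelial to mesenchymal transition), and HMLE-pBp is labelled as the line without it. Each line received either 0.2 uM salinomycin, an ionophore that carries monovalent cations across membranes, for 24 h, or DMSO as the mock. All 4 groups thus share the HMLE background, the growth medium and the time point. The labels name neither the construct and promoter behind TWIST1 nor whether each line is 1 clone.

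COPII vesicles carry newly made proteins and lipids from the endoplasmic reticulum (ER) towards the Golgi apparatus. The small GTPase SAR1 binds the ER membrane in its GTP form and recruits the inner coat, a heterodimer of SEC23, which stimulates the GTPase, and SEC24, which binds the cargo. The outer coat, a cage of SEC13 and SEC31, then bends the membrane into a bud. Vertebrate genomes hold paralogs of SAR1, SEC23 and SEC24, and the SEC24 paralogs fall into an A and B subfamily and a C and D subfamily that prefer different cargo signals.

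Each library held 17913153 to 26734977 reads assigned to genes, and each member was covered by 661 to 10505 reads per library. Levels are FPKM, fragments per kilobase of gene, scaled for library size, on 1 scale for all 12 libraries. The mock and the salinomycin libraries of each line were deposited in separate tables on separate scales, so every comparison of treatments also crosses 2 tables and rests on reads recovered from both. Any difference in how the authors made those tables cannot be told apart from the treatment. Paralog ratios within a library do not depend on a library's scale. Their change with treatment still crosses the 2 tables and rests on each gene's recovered reads. TWIST1 stood at 499 to 1173 FPKM in the HMLE-Twist libraries and at 1.81 to 2.52 in the HMLE-pBp libraries. The 6 epithelial markers summed to 1.56 to 7.05 FPKM in HMLE-Twist, where the defining marker CDH1 was at or below 0.153, and to 1982 to 2657 in HMLE-pBp. The 6 mesenchymal markers summed to 3349 to 5296 and to 472 to 600. Of the 4 leukocyte markers, 3 were under 1 FPKM in every library and LYZ was not settled. Of the 4 endothelial markers, 3 were under 1 FPKM in every library and KDR reached 1.14 FPKM in HMLE-Twist.

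RNA of most coat genes was higher under salinomycin than under mock in both lines. In HMLE-Twist, 7 of the 10 genes rose and none fell, at a Benjamini-Hochberg adjusted p under 0.05 in limma. In the same comparison 26.4% of the 12099 genes tested were called, and 12.9% were called higher and 13.5% lower. HMLE-pBp cells had 8 of the 10 called higher and none called lower, against 19.1% of all genes called, 9.70% higher and 9.40% lower. Both lines shared 7 called members, SAR1A, SEC23A, SEC24A, SEC24C, SEC24D, SEC13 and SEC31A, where 4.15% of all genes were called higher in both. For SAR1A, SEC23A, SEC24D, SEC13 and SEC31A, a missed doubling of the mock reads, which would overstate the rise, is not excluded. A doubling is larger than the rise of SAR1A and about as large as those of SEC23A and SEC31A. Changes with treatment in the paralog ratios that hold these genes carry the same limit. SEC23B was called in HMLE-pBp and missed the threshold in HMLE-Twist. Neither SAR1B nor SEC24B passed in either line. Over the 10 genes the median log2 fold change stood at 0.76 for HMLE-Twist and 0.84 for HMLE-pBp, beside -0.01 over all genes tested in each line.

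All 3 salinomycin libraries lay above all 3 mock libraries for 7 members in HMLE-Twist, where 19.1% of all genes did so, and for 9 members in HMLE-pBp, where 20.3% did. SAR1A, SEC23A, SEC24A and SEC24D had larger fold changes in both lines than their partners SAR1B, SEC23B, SEC24B and SEC24C. The plot of fold changes shows this, with the SEC24 genes paired by subfamily. With the replicate number as a block within each line, the calls over all genes came to 4905 in HMLE-Twist and 4463 in HMLE-pBp, beside 3199 and 2310 without it. The members' counts then stood at 7 and 9. Markers moved with the treatment too. Summed, the epithelial markers lay at 2281 to 2657 FPKM under mock and 1982 to 2130 under salinomycin in HMLE-pBp, and at 3.29 to 7.05 and 1.56 to 2.71 in HMLE-Twist. Single epithelial markers went either way in HMLE-pBp, where ESRP1, a splicing regulator of epithelial cells, lay at 32.2 to 34.0 FPKM under mock and 44.5 to 51.8 under salinomycin. CDH1 lay at 160 to 170 and 167 to 185, which overlap, and KRT5 overlapped too. EPCAM (217 to 285 and 138 to 180), KRT14 (828 to 961 and 581 to 682) and CLDN4 (33.3 to 41.2 and 20.5 to 31.0) lay lower under salinomycin without overlap. The mesenchymal markers summed to 3349 to 4213 FPKM under mock and 4527 to 5296 under salinomycin in HMLE-Twist, and to 472 to 499 and 517 to 600 in HMLE-pBp. Single mesenchymal markers did not all rise. In HMLE-pBp, SPARC and ZEB1 (at or below 0.175 FPKM) lay higher under salinomycin without overlap, and VIM and FN1 overlapped. CDH2 and TWIST1 lay lower there without overlap, TWIST1 at 2.46 to 2.52 FPKM under mock and 1.81 to 2.34 under salinomycin. In HMLE-Twist, VIM, FN1 and SPARC lay higher without overlap, and CDH2, TWIST1 and ZEB1 overlapped. The part of the marker changes in the result was not tested. In RNA from whole cultures, a change in the share of cells of a kind and a change in RNA per cell cannot be told apart.

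**Figure D1:**
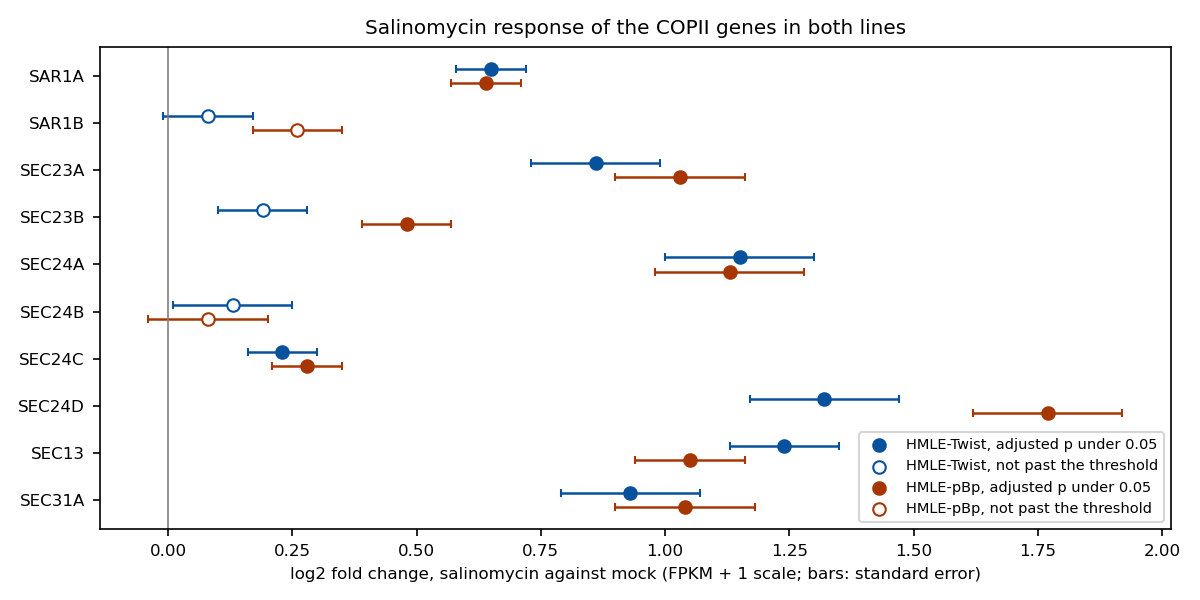
The log2 fold change of each COPII gene under salinomycin against mock is plotted for HMLE-Twist (blue) and HMLE-pBp (brown), on the log2(FPKM + 1) scale, with standard errors as bars, filled points past an adjusted p of 0.05 and open points not past it. SAR1B and SEC24B are open in both lines, and SEC24D is the gene farthest to the right in each.

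The start regions of the paralog pairs were compared next, because partners with the same role in the coat differed in response. RefSeq promoter windows (GRCh38.p14), each 300 bases around a start site, were found for 9 of the 10 genes, 14 windows in all, and SEC24D had no entry. Shown here is 1 window for each gene of the 3 pairs in which the partners differed and both have an entry, read 5′ to 3′ on the gene's strand. Capitals mark matches on either strand to TGACGT, the core of the cyclic AMP response element and of the element bound by ATF6-type factors, and to ACGTGGC, the core of the Golgi apparatus stress response element.
SAR1A, chr10:70170465-70170764, minus strand: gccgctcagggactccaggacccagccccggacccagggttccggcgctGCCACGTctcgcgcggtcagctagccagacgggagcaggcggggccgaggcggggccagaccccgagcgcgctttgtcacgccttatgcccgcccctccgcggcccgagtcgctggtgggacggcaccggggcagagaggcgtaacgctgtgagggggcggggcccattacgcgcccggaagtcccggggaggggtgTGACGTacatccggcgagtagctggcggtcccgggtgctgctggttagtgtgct
SAR1B, chr5:134632779-134633078, minus strand: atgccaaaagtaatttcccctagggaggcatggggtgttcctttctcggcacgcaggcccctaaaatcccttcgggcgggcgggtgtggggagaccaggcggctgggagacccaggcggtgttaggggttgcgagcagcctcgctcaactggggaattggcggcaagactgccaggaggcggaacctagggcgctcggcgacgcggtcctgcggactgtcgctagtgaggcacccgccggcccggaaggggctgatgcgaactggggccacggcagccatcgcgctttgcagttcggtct
SEC23A, chr14:39103186-39103485, minus strand: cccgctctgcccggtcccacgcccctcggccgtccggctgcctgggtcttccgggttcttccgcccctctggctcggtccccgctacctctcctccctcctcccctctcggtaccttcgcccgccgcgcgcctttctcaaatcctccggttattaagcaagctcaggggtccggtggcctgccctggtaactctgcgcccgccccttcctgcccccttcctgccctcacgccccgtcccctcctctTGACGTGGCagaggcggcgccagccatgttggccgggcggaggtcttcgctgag
SEC23B, chr20:18507298-18507597, plus strand: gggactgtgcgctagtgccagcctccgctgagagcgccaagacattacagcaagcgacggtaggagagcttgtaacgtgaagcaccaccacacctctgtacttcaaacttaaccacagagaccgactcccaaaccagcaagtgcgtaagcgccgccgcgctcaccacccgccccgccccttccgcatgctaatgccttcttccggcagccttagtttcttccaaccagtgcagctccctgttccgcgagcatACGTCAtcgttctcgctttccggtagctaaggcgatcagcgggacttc
SEC24A, chr5:134648535-134648834, plus strand: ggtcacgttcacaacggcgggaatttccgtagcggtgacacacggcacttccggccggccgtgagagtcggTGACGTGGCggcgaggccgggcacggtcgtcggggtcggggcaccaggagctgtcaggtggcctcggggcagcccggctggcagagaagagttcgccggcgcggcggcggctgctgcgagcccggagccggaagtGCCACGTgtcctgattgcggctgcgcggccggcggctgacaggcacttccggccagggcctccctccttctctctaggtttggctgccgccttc
SEC24B, chr4:109433565-109433864, plus strand: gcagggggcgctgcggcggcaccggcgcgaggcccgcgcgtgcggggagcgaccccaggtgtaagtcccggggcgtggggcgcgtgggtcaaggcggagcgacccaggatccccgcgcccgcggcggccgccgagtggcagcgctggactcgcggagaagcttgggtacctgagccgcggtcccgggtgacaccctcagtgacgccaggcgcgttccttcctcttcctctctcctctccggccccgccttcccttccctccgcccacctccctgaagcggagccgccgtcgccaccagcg

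ACGTGGC or its reverse complement was present in a window of 6 of the 9 genes, SAR1A, SEC13, SEC23A, SEC24A, SEC24C and SEC31A. Of 27305 genes with a window, 3.95% held it, and 3.22% of all 35116 windows did. TGACGT was present in 6 of the 9, SAR1A, SEC13, SEC23A, SEC23B, SEC24A and SEC24C, where 9.64% of all genes and 7.98% of all windows held it. These backgrounds hold every gene with a window and were not matched to the members for expression, base composition or windows per gene. The members' windows were 54.3% to 75.7% G or C, and SEC31A, SEC13 and SEC23B have more windows than the other members. The part of base composition and window number in the members' matches was not tested. These 2 motifs share the letters ACGT and can overlap. They do so in SEC23A, from 4 bases before the start site to 5 bases after it, and in SEC24A, from position -179 to -171. The windows of SAR1B and SEC24B held neither motif, and neither did the second window of SEC23B. Neither of the longer ER stress elements, ERSE (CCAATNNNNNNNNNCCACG, in 0.0916% of all genes) and ERSE-II (in 0.0696%), matched in any window of the 9 genes. Set beside the responses, the 6 genes with ACGTGGC were all among the 7 that rose in both lines. The remaining gene of those 7, SEC24D, had no window to search. This match depends on the threshold. The calls of SEC24C were lost without some single libraries in each line, and SAR1B passed in HMLE-pBp in some settings. SAR1B, SEC23B and SEC24B had no match to ACGTGGC, and of these SEC23B passed in HMLE-pBp. By size the responses were less apart. SEC24C, which held the motif, stood at 0.28 in HMLE-pBp, beside 0.48 for SEC23B and 0.26 for SAR1B. In HMLE-Twist they stood at 0.23, 0.19 and 0.08. A link between motif and response was not tested. The matches are letters in a window and show no binding. On chromosome 5, the start of SEC24A lies 15957 bases from that of SAR1B, on the opposite strand. SEC24A rose in both lines and SAR1B passed in neither.

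SAR1A and SAR1B encode the GTPases that start the coat, and SAR1B is the one mutated in chylomicron retention disease. SAR1A was at 59.2, 53.0 and 55.1 FPKM in the mock and 88.0, 87.4 and 89.2 in the salinomycin libraries of HMLE-Twist. In HMLE-pBp it was at 31.1, 34.3 and 33.7 FPKM in the mock and 53.0, 53.5 and 49.4 in the salinomycin libraries. Every salinomycin library lay above every mock library of its line. The log2 fold change was 0.65 ± 0.07 (SE, limma adjusted p = 6.55e-05) in HMLE-Twist and 0.64 ± 0.07 (adjusted p = 1.61e-04) in HMLE-pBp.

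SAR1B was at 17.7, 15.9 and 15.1 FPKM in the mock and 17.8, 17.7 and 16.1 in the salinomycin libraries of HMLE-Twist, which overlap. In HMLE-pBp it was at 25.7, 23.6 and 23.3 FPKM and at 31.2, 30.3 and 26.0, where the lowest salinomycin library was just above the highest mock library. Its log2 fold change was 0.08 ± 0.09 (adjusted p = 0.561) in HMLE-Twist and 0.26 ± 0.09 (adjusted p = 0.0674) in HMLE-pBp. The value in HMLE-pBp passed with the replicate block within each line (adjusted p = 0.0158), with TMM factors (0.0467), without HMLE-pBp salinomycin replicate 3 (0.0275) and without HMLE-Twist mock replicate 1 (0.0382), in a range of 0.0102 to 0.218 over all settings.

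SAR1A made up 77.5% ± 0.887 (SD, n = 3) of the summed SAR1 FPKM under mock and 83.7% ± 0.873 under salinomycin in HMLE-Twist. In HMLE-pBp the share was 57.7% ± 2.59 and 64.1% ± 1.27. The log2 ratio of SAR1A to SAR1B rose by 0.48 under salinomycin over both lines (exact permutation test stratified by line, two-sided p = 0.00500, adjusted p = 0.00937). That p is the smallest the 400 relabellings allow. The same ratio was 1.43 higher in HMLE-Twist than in HMLE-pBp over both treatments (exact permutation adjusted p = 0.00937). Its responses, 0.58 for HMLE-Twist against 0.39 for HMLE-pBp, differed by 0.19, which missed the threshold (exact permutation adjusted p = 0.704). That last test permutes treatment labels, so its null is no treatment effect in either line, and it is conservative for a difference of effects. With the replicate block its adjusted p was 0.687. Paired by replicate number, the 3 responses were 0.56, 0.57 and 0.60 in HMLE-Twist and 0.49, 0.28 and 0.39 in HMLE-pBp and did not overlap. Permuting these 6 pairs between the lines gave an exact p of 0.10, the smallest that 20 relabellings allow, so that test cannot pass the threshold (adjusted p = 0.25 over the 5 ratios). The 15 tests of 5 ratios and 3 contrasts were adjusted together.

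SEC23A and SEC23B encode the inner coat's GTPase-activating subunit. SEC23A is mutated in cranio-lenticulo-sutural dysplasia and SEC23B in a congenital dyserythropoietic anaemia. SEC23A was at 62.0, 55.0 and 45.3 FPKM in the mock and 98.2, 107 and 91.3 in the salinomycin libraries of HMLE-Twist. In HMLE-pBp it was at 28.4, 25.5 and 25.0 FPKM and at 65.6, 54.2 and 46.1. No salinomycin library overlapped the mock libraries of its line. SEC23A rose by 0.86 ± 0.13 on the log2 scale (limma adjusted p = 7.59e-04) in HMLE-Twist and by 1.03 ± 0.13 (adjusted p = 4.24e-04) in HMLE-pBp.

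SEC23B was at 26.9, 21.9 and 23.4 FPKM in the mock and 28.2, 27.5 and 26.8 in the salinomycin libraries of HMLE-Twist, where the groups overlap. In HMLE-pBp it was at 22.4, 21.6 and 21.2 FPKM and at 33.8, 31.1 and 27.4, with no overlap. The log2 fold change was 0.19 ± 0.09 (adjusted p = 0.151) in HMLE-Twist and 0.48 ± 0.09 (adjusted p = 0.00491) in HMLE-pBp. Without HMLE-Twist mock replicate 1, the highest mock library, the value in HMLE-Twist passed at 0.27 (adjusted p = 0.0384, in a range of 0.0384 to 0.408 over all settings). The difference between the lines was -0.28 ± 0.13 (adjusted p = 0.166, 95% interval -0.57 to 0.00), so a different response of SEC23B in the lines was not shown.

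Of the summed SEC23 FPKM, SEC23A made up 69.1% ± 2.86 (SD, n = 3) under mock and 78.2% ± 1.15 under salinomycin in HMLE-Twist. The corresponding shares in HMLE-pBp were 54.7% ± 1.00 and 64.1% ± 1.69. The log2 ratio of SEC23A to SEC23B rose by 0.62 under salinomycin and was 0.95 higher in HMLE-Twist (exact permutation adjusted p = 0.00937 for each). The responses of this ratio, 0.67 for HMLE-Twist against 0.57 for HMLE-pBp, differed by 0.11, which missed the threshold (exact permutation adjusted p = 0.841). The paired responses, 0.59, 0.62 and 0.81 in HMLE-Twist and 0.62, 0.56 and 0.52 in HMLE-pBp, overlapped.

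**Figure D2:**
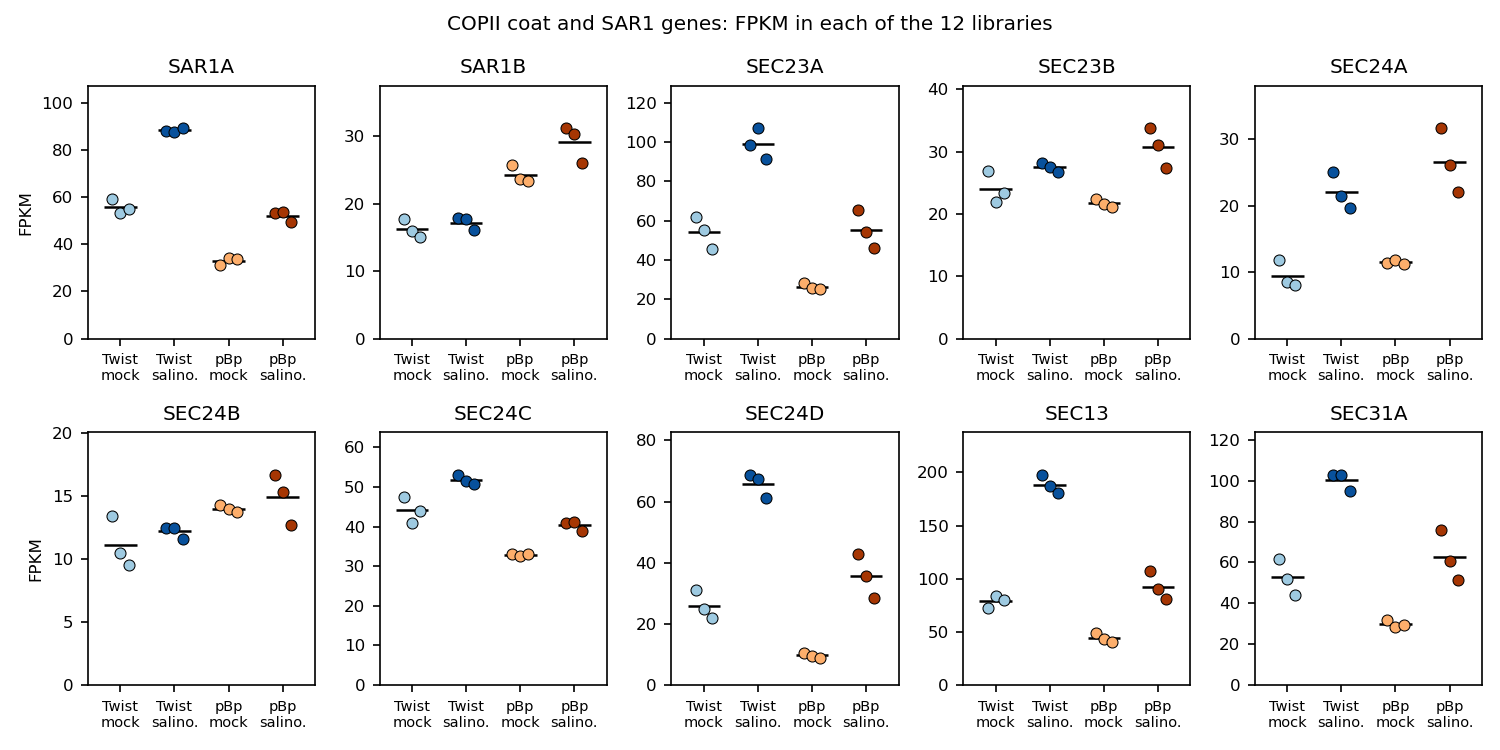
FPKM of each COPII gene is plotted for the 12 libraries (points) with the group mean (line), 1 panel per gene, each axis starting at 0. SEC24D goes from 8.83 to 10.5 FPKM under mock to 28.4 to 42.8 under salinomycin in HMLE-pBp, while the SEC24B libraries of the 2 treatments overlap in both lines.

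SEC24 is the cargo adaptor of the coat. SEC24A, of the A and B subfamily, was at 11.8, 8.44 and 8.10 FPKM in the mock and 25.1, 21.4 and 19.7 in the salinomycin libraries of HMLE-Twist. HMLE-pBp libraries held it at 11.4, 11.8 and 11.2 FPKM and at 31.7, 26.2 and 22.0. Treated and mock libraries did not overlap in either line. SEC24A rose by 1.15 ± 0.15 on the log2 scale (limma adjusted p = 2.17e-04) in HMLE-Twist and by 1.13 ± 0.15 (adjusted p = 4.61e-04) in HMLE-pBp.

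SEC24B, the adaptor that sorts the planar polarity protein VANGL2, was at 13.4, 10.5 and 9.51 FPKM in the mock and 12.5, 12.5 and 11.6 in the salinomycin libraries of HMLE-Twist. The HMLE-pBp libraries stood at 14.3, 14.0 and 13.7 FPKM and at 16.7, 15.3 and 12.7. The treatments overlapped in both lines. Its log2 fold change was 0.13 ± 0.12 (adjusted p = 0.451, 95% interval -0.13 to 0.39) in HMLE-Twist and 0.08 ± 0.12 (adjusted p = 0.686, 95% interval -0.18 to 0.34) in HMLE-pBp. The log2 ratio of SEC24A to SEC24B went from -0.24 ± 0.07 (SD, n = 3) to 0.85 ± 0.14 in HMLE-Twist and from -0.29 ± 0.04 to 0.83 ± 0.08 in HMLE-pBp. Every salinomycin library had a higher ratio than every mock library of its line. Which gene led under mock depended on the gene length used. The recovered lengths are 7059 bases for SEC24A and 4782 for SEC24B, and the nearest protein-coding reference transcripts have 6299 and 5083. With the reference lengths the log2 ratio lay between -0.07 and 0.07 in the 6 mock libraries and between 1.02 and 1.26 in the 6 salinomycin libraries, so SEC24A led in the salinomycin libraries with either set of lengths. The ratio was higher by 1.10 under salinomycin over both lines (exact permutation adjusted p = 0.00937). The lines differed in it by 0.03 (exact permutation adjusted p = 0.704), and its responses of 1.09 and 1.12 differed by -0.03 (exact permutation adjusted p = 0.915).

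SEC24C and SEC24D form the other subfamily, and SEC24D is mutated in a skeletal dysplasia. SEC24C was at 47.5, 40.9 and 43.9 FPKM in the mock and 53.1, 51.6 and 50.8 in the salinomycin libraries of HMLE-Twist. Its HMLE-pBp levels were 33.1, 32.6 and 33.1 FPKM and at 41.0, 41.2 and 38.8. The treatments did not overlap, but the step was small. SEC24C rose by 0.23 ± 0.07 (limma adjusted p = 0.0306) in HMLE-Twist and by 0.28 ± 0.07 (adjusted p = 0.0163) in HMLE-pBp. The call in HMLE-Twist was lost without mock replicate 2 (adjusted p = 0.119) or 3 (0.0567) and without salinomycin replicate 1 (0.101), 2 (0.0742) or 3 (0.0695) of that line. The call in HMLE-pBp was lost without mock replicate 2 (0.0587) or 3 (0.0562) and without salinomycin replicate 1 (0.0518) or 2 (0.0534) of that line. Over all settings the adjusted p lay between 0.00752 and 0.119 in HMLE-Twist and between 0.00491 and 0.0587 in HMLE-pBp.

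SEC24D had the largest log2 fold change of the 10 genes in each line. It was at 31.1, 24.8 and 22.0 FPKM in the mock and 68.8, 67.4 and 61.3 in the salinomycin libraries of HMLE-Twist. The corresponding HMLE-pBp levels were 10.5, 9.64 and 8.83 FPKM and at 42.8, 35.6 and 28.4. SEC24D rose by 1.32 ± 0.15 on the log2 scale (limma adjusted p = 7.62e-05) in HMLE-Twist and by 1.77 ± 0.15 (adjusted p = 2.09e-05) in HMLE-pBp.

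The log2 ratio of SEC24C to SEC24D fell by 1.35 under salinomycin over both lines and was lower by 0.77 in HMLE-Twist (a difference of -0.77, exact permutation adjusted p = 0.00937 for each). In HMLE-Twist it went from 0.78 ± 0.20 to -0.34 ± 0.06 (SD, n = 3), and in HMLE-pBp from 1.77 ± 0.12 to 0.20 ± 0.26. Its responses, -1.12 for HMLE-Twist against -1.57 for HMLE-pBp, differed by 0.45, which missed the threshold (exact permutation adjusted p = 0.704, and 0.687 with the replicate block). Paired by replicate number, the responses were -0.99, -1.11 and -1.27 in HMLE-Twist and -1.73, -1.54 and -1.46 in HMLE-pBp and did not overlap, with the smallest exact p that test allows (0.10, adjusted p = 0.25). SEC24C led SEC24D in all 6 mock libraries, and SEC24D led SEC24C in the 3 HMLE-Twist salinomycin libraries and in 1 of the 3 of HMLE-pBp. Of the summed SEC24 FPKM, SEC24D made up 28.5% ± 1.91 in HMLE-Twist mock, 43.3% ± 0.687 in HMLE-Twist salinomycin, 14.2% ± 0.951 in HMLE-pBp mock and 30.1% ± 2.26 in HMLE-pBp salinomycin. SEC24C went from 48.9% ± 3.43 to 34.2% ± 1.14 in HMLE-Twist and from 48.4% ± 0.954 to 34.6% ± 3.53 in HMLE-pBp. SEC24A's share rose from 10.3% ± 0.905 to 14.5% ± 1.08 and from 16.9% ± 0.439 to 22.6% ± 1.25. SEC24B's share went from 12.2% ± 0.765 to 8.02% ± 0.191 and from 20.6% ± 0.0356 to 12.7% ± 0.246.

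**Figure D3:**
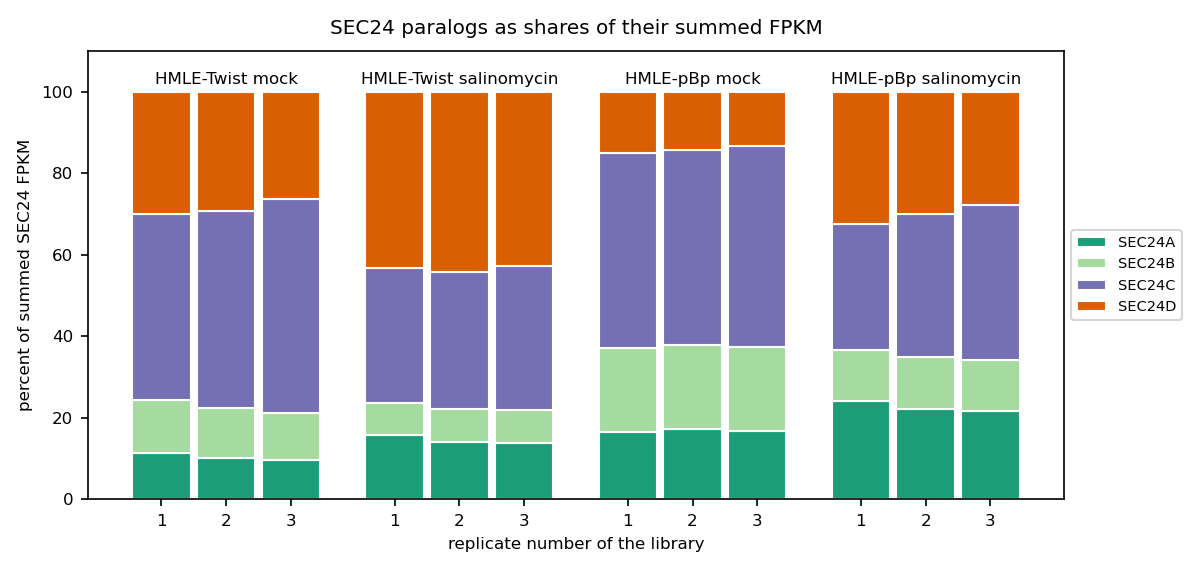
Bars give the share of each SEC24 paralog in the summed SEC24 FPKM (percent, stacked to 100) for each library, in 4 groups of 3. SEC24D (orange) widens under salinomycin in both lines, from 28.5% to 43.3% on average in HMLE-Twist and from 14.2% to 30.1% in HMLE-pBp, while SEC24C (violet) narrows.

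Between the subfamilies the balance differed by line, and no effect of treatment over both lines was called. The log2 ratio of SEC24A plus SEC24B to SEC24C plus SEC24D was -1.64, -1.80 and -1.91 in the mock and -1.7, -1.81 and -1.84 in the salinomycin libraries of HMLE-Twist, which overlap. The HMLE-pBp libraries stood at -0.76, -0.71 and -0.75 and at -0.79, -0.89 and -0.95, with each salinomycin library below every mock library. The difference of salinomycin from mock over both lines was -0.07 (exact permutation p = 0.215, adjusted p = 0.345), and that of HMLE-Twist from HMLE-pBp was -0.97 (exact permutation adjusted p = 0.00937). The difference of the responses, 0.14, missed the threshold (exact permutation adjusted p = 0.345). The summed SEC24 level itself was 90.7 ± 11.4 FPKM (SD, n = 3) under mock and 152 ± 8.08 under salinomycin in HMLE-Twist. In HMLE-pBp it was 68.0 ± 1.29 and 117 ± 15.1. Each subfamily thus held 1 gene with a large response, SEC24A or SEC24D, and 1 with a small or undetected one.

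**Figure D4:**
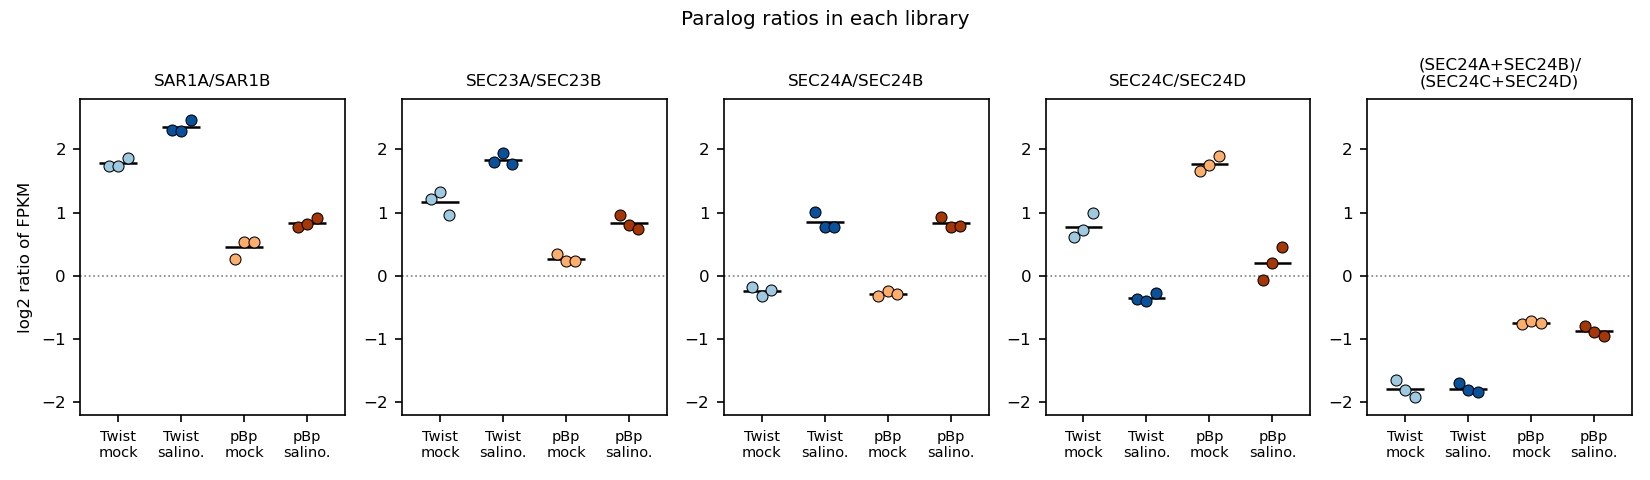
Each panel plots a log2 ratio of FPKM between paralogs for the 12 libraries (points) with group means (lines), and the dotted line marks equal levels with the recovered lengths. The first 4 ratios differ between salinomycin and mock in both lines. The SEC24A/SEC24B ratio differs by 0.03 between the lines, and the ratio of the SEC24 subfamilies separates the lines.

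SEC13 and SEC31A encode the outer coat. SEC13 is also a subunit of the nuclear pore and of the GATOR complex that signals amino acid supply. SEC13 was at 72.9, 84.1 and 80.4 FPKM in the mock and 198, 187 and 181 in the salinomycin libraries of HMLE-Twist. In the other line, HMLE-pBp, the levels were 49.1, 43.2 and 40.1 FPKM and at 107, 90.1 and 80.5. It rose by 1.24 ± 0.11 on the log2 scale (limma adjusted p = 1.87e-05) in HMLE-Twist and by 1.05 ± 0.11 (adjusted p = 9.30e-05) in HMLE-pBp.

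SEC31A was at 61.8, 52.0 and 44.2 FPKM in the mock and 103, 103 and 94.8 in the salinomycin libraries of HMLE-Twist. HMLE-pBp cells had it at 31.6, 28.2 and 29.2 FPKM and at 76.1, 60.9 and 51.2. It rose by 0.93 ± 0.14 (limma adjusted p = 5.94e-04) in HMLE-Twist and by 1.04 ± 0.14 (adjusted p = 5.44e-04) in HMLE-pBp. Mock and treated libraries did not overlap for either outer coat gene in either line. SEC31B, the paralog of SEC31A and not counted among the 10, was at 1.28 to 2.78 FPKM in HMLE-Twist and 1.93 to 3.06 in HMLE-pBp and was not called in either line (adjusted p = 0.329 and 0.162). SEC31A was the more abundant of the pair in every library.

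Per kilobase, SEC13 was the most abundant of the 10 RNAs in all 4 groups, at 79.1 ± 5.71 FPKM (SD, n = 3) in HMLE-Twist mock, 188 ± 8.70 in HMLE-Twist salinomycin, 44.1 ± 4.55 in HMLE-pBp mock and 92.5 ± 13.4 in HMLE-pBp salinomycin. In none of the groups did its libraries overlap those of the next gene. In HMLE-Twist mock, SAR1A, SEC23A, SEC31A and SEC24C followed at 55.8 to 44.1 FPKM, and each overlapped its neighbour in that order. SEC24D and SEC23B came next and overlapped, then SAR1B, and SEC24B and SEC24A were lowest and overlapped. In HMLE-pBp mock, SEC24D was the lowest gene at 9.65 ± 0.829 FPKM, below SEC24A at 11.5 ± 0.301 without overlap. Under salinomycin, SEC24D was above SEC24C without overlap in HMLE-Twist and overlapped SEC24C and SEC23B in HMLE-pBp. SEC24B was lowest in both salinomycin groups, at 12.2 ± 0.533 FPKM in HMLE-Twist and 14.9 ± 2.01 in HMLE-pBp, without overlap with its neighbour. This order rests on the recovered lengths. With the nearest reference transcripts SEC13 was still highest in every library and SEC24D lowest in every HMLE-pBp mock library, while SEC24A and SEC24B changed places in some mock libraries.

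The second question was how the lines differ in the coat. Under mock, 8 of the 10 genes were called between HMLE-Twist and HMLE-pBp in limma, 6 higher and 2 lower in HMLE-Twist. All HMLE-Twist mock libraries lay above all HMLE-pBp mock libraries for 6 members and below them for 2, where 36.8% and 37.1% of all genes did so. The 2 lines differ in most of the transcriptome, since 73.3% of all genes were called, 36.1% higher and 37.2% lower, and the share of members called is near that background. The members' median log2 difference was 0.57, beside -0.00 over all genes. SEC24D had the largest difference, 1.33 ± 0.15 (adjusted p = 4.55e-06), followed by SEC23A at 1.01 ± 0.13 (adjusted p = 2.50e-05), SEC13 at 0.83 ± 0.11 (adjusted p = 1.99e-05) and SEC31A at 0.79 ± 0.14 (adjusted p = 2.49e-04). SAR1A was higher by 0.74 ± 0.07 (adjusted p = 1.27e-06) and SEC24C by 0.41 ± 0.07 (adjusted p = 2.03e-04). SAR1B was the opposite of its paralog, with a difference of -0.55 ± 0.09 (adjusted p = 1.38e-04).

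SEC24B was lower in HMLE-Twist under mock by a small step, a log2 difference of -0.32 ± 0.12 (adjusted p = 0.0285). That call was lost when libraries were scaled by total reads (-0.18, adjusted p = 0.185) and without HMLE-Twist mock replicate 2 (0.0892) or 3 (0.122) or HMLE-pBp mock replicate 1 (0.0684), 2 (0.0598) or 3 (0.0526), in a range of 0.00227 to 0.185 over all settings. SEC23B (0.13 ± 0.09, adjusted p = 0.214) and SEC24A (-0.27 ± 0.15, adjusted p = 0.118) missed the threshold under mock. SEC23B passed with total reads (0.28, adjusted p = 0.0169, range 0.0169 to 0.518). SEC24A passed with the replicate block (adjusted p = 0.0206) and without HMLE-Twist mock replicate 1 (0.0158, range 0.0158 to 0.426). Scaling by total reads moved the median of all genes to 0.13 under mock and 0.14 under salinomycin, so differences between the lines are read relative to that median.

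Under salinomycin, 7 genes were called between the lines, 6 higher and 1 lower in HMLE-Twist, where 63.4% of all genes were called, 31.4% higher and 32.0% lower. The libraries did not overlap for 6 members higher and 2 lower in HMLE-Twist, as for 35.0% and 34.7% of all genes. SEC13 differed most, by 1.03 ± 0.11 (adjusted p = 4.01e-06), then SEC24D by 0.89 ± 0.15 (adjusted p = 2.00e-04), SEC23A by 0.84 ± 0.13 (adjusted p = 1.59e-04), SAR1A by 0.75 ± 0.07 (adjusted p = 1.40e-06), SEC31A by 0.69 ± 0.14 (adjusted p = 9.73e-04) and SEC24C by 0.35 ± 0.07 (adjusted p = 7.99e-04). SAR1B was again lower in HMLE-Twist, at -0.73 ± 0.09 (adjusted p = 1.77e-05). SEC24B stood at -0.26 ± 0.12 (adjusted p = 0.0719) and passed with the replicate block (0.0177), without HMLE-Twist mock replicate 1 (0.0262) and without HMLE-pBp salinomycin replicate 3 (0.0210), in a range of 0.0177 to 0.371. SEC24A (-0.25 ± 0.15, adjusted p = 0.162) passed only with the replicate block among the settings run (0.0338, range 0.0338 to 0.537). These comparisons share their libraries with the salinomycin comparisons, so their values are given side by side and not counted as separate support.

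The third question was whether any of the 10 genes responded differently in the lines. None was called for the difference of the salinomycin responses in limma, none had an unadjusted p under 0.05, and no other tool was run, while 13.5% of all genes were called. The estimates ran from -0.44 for SEC24D to 0.20 for SEC13. SEC24D had a difference of -0.44 ± 0.21 (adjusted p = 0.169, unadjusted p = 0.0541, 95% interval -0.90 to 0.01). With the replicate block within each line the same difference was called (adjusted p = 0.0254), as it was with 1 block over all libraries (0.0180), in a range of 0.0180 to 0.347 over all settings. Calls over all genes for this difference numbered 1637, and 3916 with the block within each line. The intervals of the other genes were wide enough to hold modest differences, for instance -0.44 to 0.48 for SEC24A and -0.20 to 0.23 for SAR1A.

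The rest of ER-to-Golgi transport was read from a list of 32 genes in 3 groups, of which 31 were tested and TRAPPC2L was left out because its reads were not settled. Of the 12 genes of COPII assembly and regulation, 7 rose and 1 fell in HMLE-Twist and 4 rose and none fell in HMLE-pBp, with medians of 0.38 and 0.17. SEC16B is 1 of the 7. Of all genes, 12.9% were called higher and 13.5% lower in HMLE-Twist and 9.70% and 9.40% in HMLE-pBp. SEC16A, the scaffold of ER exit sites, rose by 1.16 ± 0.08 (limma adjusted p = 4.72e-06) in HMLE-Twist and by 0.82 ± 0.08 (adjusted p = 7.98e-05) in HMLE-pBp. SEC16B, its paralog, was at 0.718, 0.858 and 0.728 FPKM in the mock and 2.40, 3.08 and 2.59 in the salinomycin libraries of HMLE-Twist, and at 0.283 to 0.603 in HMLE-pBp. It passed the filter on low values only through the 3 HMLE-Twist salinomycin libraries, so its calls are a description and support nothing. SEC23IP, a phospholipase-like partner of SEC23, rose by 0.77 ± 0.15 in each line (adjusted p = 0.00303 in HMLE-Twist and 0.00526 in HMLE-pBp). The smallest changes were those of ANXA11, a calcium-binding annexin, in HMLE-Twist (-0.05 ± 0.09, adjusted p = 0.705) and PREB, the exchange factor for SAR1, in HMLE-pBp (0.02 ± 0.08, adjusted p = 0.897). The 1 gene that fell was PEF1, a calcium-binding partner of PDCD6 (-0.26 ± 0.08, adjusted p = 0.0330), named after its value was seen. Its call was lost without HMLE-Twist mock replicate 2, any of the 3 HMLE-Twist salinomycin libraries or HMLE-pBp mock replicate 2. For the difference of the responses, where 13.5% of all genes were called, SEC16B was the 1 gene of the group called higher, and PEF1 was the 1 called lower (-0.43 ± 0.11, adjusted p = 0.0293). With the replicate block, over all libraries or within each line, 3 were called higher and 2 lower. Called higher were 2 without HMLE-Twist mock replicate 1 or 3 or HMLE-pBp mock replicate 1, and called lower were 2 without HMLE-Twist mock replicate 3. The count called lower was 0 without HMLE-Twist mock replicate 2, any HMLE-Twist salinomycin library, HMLE-pBp mock replicate 2 or 3, or HMLE-pBp salinomycin replicate 1 or 2.

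Cargo receptors bind soluble or membrane cargo and pack it into the coat. Of 6 tested, 3 rose and 1 fell in HMLE-Twist, and none was called in HMLE-pBp in limma, where 4 had an unadjusted p under 0.05. The shares of all genes in these comparisons were 12.9% higher and 13.5% lower in HMLE-Twist and 9.70% and 9.40% in HMLE-pBp. LMAN1, the mannose lectin also called ERGIC-53, rose by 1.02 ± 0.12 (adjusted p = 1.04e-04) in HMLE-Twist, from 61.5 ± 12.6 to 124 ± 4.60 FPKM (SD, n = 3). In HMLE-pBp it stood at 0.34 ± 0.12 (adjusted p = 0.0665). SURF4, a receptor for soluble secreted proteins, rose by 0.85 ± 0.08 (adjusted p = 3.82e-05) in HMLE-Twist and stood at 0.20 ± 0.08 (adjusted p = 0.108) in HMLE-pBp. CNIH4, a cornichon protein named after its value was seen, was the gene that fell in HMLE-Twist (-0.27 ± 0.06, adjusted p = 0.00635), and it stood at -0.18 ± 0.06 (adjusted p = 0.0585) in HMLE-pBp. For the difference of the responses, LMAN1 (0.68 ± 0.17, adjusted p = 0.0226), SURF4 (0.65 ± 0.12, adjusted p = 0.00584) and MCFD2 (0.39 ± 0.12, adjusted p = 0.0431) were called, each with the larger value in HMLE-Twist. The count of receptors called for the difference was 1 without HMLE-Twist mock replicate 2, HMLE-Twist salinomycin replicate 1, HMLE-pBp mock replicate 2 or HMLE-pBp mock replicate 3. All 6 receptors were called lower in HMLE-Twist under mock, with a median of -1.24, where 37.2% of all genes were called lower. Of the coat genes 6 of 10 were called higher, where 36.1% of all genes were. CNIH1, another cornichon protein, had the smallest value in HMLE-Twist (0.05 ± 0.09, adjusted p = 0.705), and in HMLE-pBp it stood at -0.26 ± 0.09 (adjusted p = 0.0538). Its recovered length was 29.7% of its longest reference transcript. MCFD2, the partner of LMAN1, had the smallest value in HMLE-pBp (-0.10 ± 0.08, adjusted p = 0.414). With the replicate block within each line, 2 receptors were called higher and 2 lower in HMLE-pBp, LMAN1 (adjusted p = 0.0178) and CNIH1 (0.0194) among them. LMAN1 also passed in HMLE-pBp with TMM factors (0.0470), with total reads (0.0497) and without HMLE-Twist mock replicate 1 (0.00715) or 3 (0.0480). CNIH1 also passed with total reads (0.0315), with the stricter filter (0.0499) and without HMLE-Twist mock replicate 1 (0.0233) or 3 (0.0496), HMLE-pBp mock replicate 1 (0.0348) or HMLE-pBp salinomycin replicate 2 (0.0445).

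Of the 13 tested genes of tethering and fusion, 6 rose in HMLE-Twist and 8 in HMLE-pBp and none fell in either, with medians of 0.20 and 0.43, beside the 12.9% and 9.70% of all genes called higher. GOSR2, a Golgi SNARE, rose by 0.84 ± 0.10 (limma adjusted p = 1.19e-04) in HMLE-Twist and by 0.80 ± 0.10 (adjusted p = 3.54e-04) in HMLE-pBp. USO1, the tether p115, rose by 0.66 ± 0.12 (adjusted p = 0.00158) in HMLE-Twist and by 0.59 ± 0.12 (adjusted p = 0.00495) in HMLE-pBp. SEC22B, an ER SNARE, rose by 0.63 ± 0.12 (adjusted p = 0.00246) in HMLE-Twist and by 0.84 ± 0.12 (adjusted p = 7.50e-04) in HMLE-pBp. Its recovered length was 27.2% of its longest reference transcript, so a missed multiple of its mock reads cannot be told apart from a short transcript. The smallest values were those of SCFD1, a partner of SNAREs, in HMLE-Twist (0.04 ± 0.11, adjusted p = 0.820) and of RAB1B, a GTPase of this step, in HMLE-pBp (-0.02 ± 0.09, adjusted p = 0.888). None of the group was called for the difference of the responses in limma, where 2 had an unadjusted p under 0.05. With the replicate block, over all libraries or within each line, 2 were called lower, as were 2 without HMLE-Twist mock replicate 3 and 1 without HMLE-pBp salinomycin replicate 3.

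**Figure D5:**
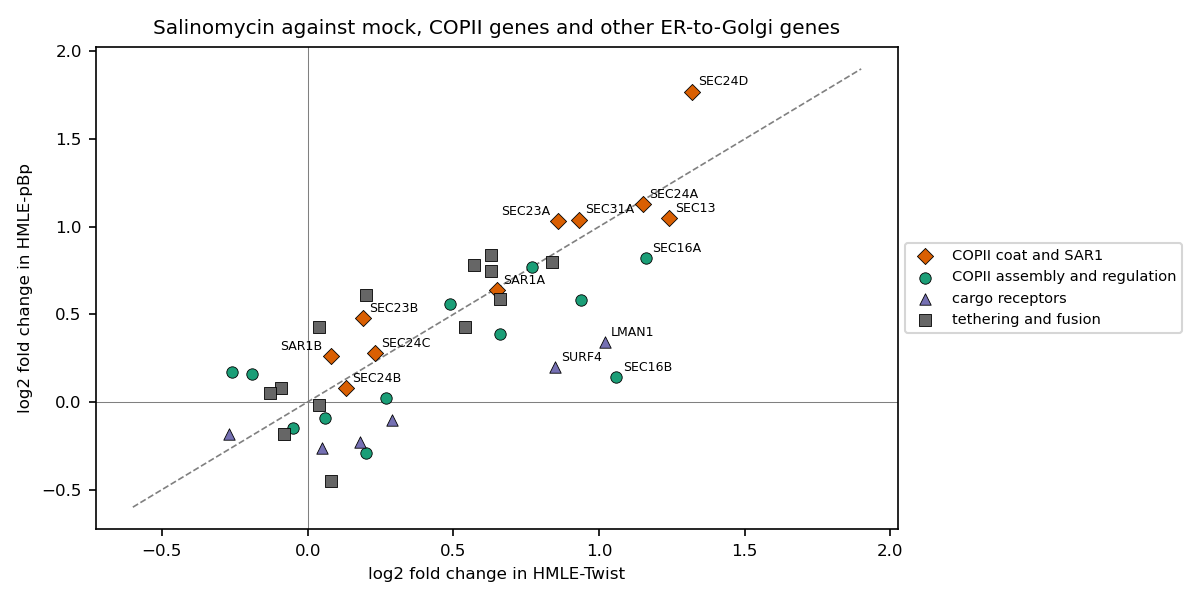
Each point is a gene placed by its log2 fold change under salinomycin in HMLE-Twist (x axis) and HMLE-pBp (y axis), for the COPII coat genes (diamonds) and the 3 groups of other ER-to-Golgi genes, with the dashed line at equal responses. Most coat genes lie near the dashed line and SEC24D lies above it at 1.32 and 1.77, while the receptors LMAN1 and SURF4 lie below it.

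The genes with the most similar profile to each member are given as a description over the 12 libraries, which share 2 lines and 2 treatments. For SEC24D they were ARFGAP3 (Pearson r = 0.993) and SEC31A (0.993), and for SEC31A they were SEC24D (0.993) and ARL1 (0.991). SEC23A was nearest to TMF1 (0.994) and BET1 (0.991), SEC24A to OSBP (0.996) and COG3 (0.993), and SEC13 to COPG1 (0.990) and MAGED2 (0.985). SEC24C was nearest to ARMCX3 (0.986) and TFG (0.985). SAR1A was nearest to MORC4 (0.990) and SLC17A5 (0.990), SAR1B to TAB3 (0.991) and KLF7 (0.988), SEC23B to PPM1K (0.957) and KLHDC10 (0.955), and SEC24B to RAI14 (0.979) and HELZ (0.974). Among the members, SEC23A, SEC24D and SEC31A ran closest together, with r = 0.99 for each pair. The paralogs SAR1A and SAR1B stood at r = -0.53, SEC23A and SEC23B at 0.66, SEC24A and SEC24B at 0.56, and SEC24C and SEC24D at 0.92. Across the 12 libraries SAR1B thus ran closer to SEC24B (r = 0.87) than to its own paralog.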

How the data were processed

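RNA-seq of 12 libraries in 4 deposited tables was used. Per the labels, the tables hold FPKM made with DESeq2, and per the submitters' processing notes the version was 1.1.0 and the build hg19. No label or header names the aligner, counter or annotation. The deposited mock tables do hold FPKM, scaled by the authors within each table. The deposited salinomycin tables are labelled FPKM, but their values reach below 0 and are log2 values whose spread between libraries was shrunk by the authors (regularised log2), not divided by length.

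To bring them to 1 scale, mock FPKM were turned into whole reads through a length common to both mock tables, and the log2 values were inverted to reads. Within 0.1 of a whole read lay 98.5% of the HMLE-Twist and 96.0% of the HMLE-pBp salinomycin values, and of the members' values 3 and 2 lay farther off. All 12915 genes over 100 mock reads had a whole common length, which could be a fraction of the true one. For all 10 members, doubling it would exceed the longest reference transcript. Set against all exons, it was 0.444 of the total for SAR1A, 0.399 for SEC13, 0.429 for SEC23A, 0.410 for SEC24D and 0.467 for SEC31A. A doubled length would fit within all exons of these genes. A missed doubling of their mock reads, which would overstate their rise, is not excluded by that bound. Reads of 293 genes, 81 of them over 100 mock reads, were not settled and were left out, which left 26064 of the 26357 gene names shared by the tables.

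FPKM were scaled by median-of-ratios factors over 12 libraries. Genes at 1 FPKM or more in 3 or more libraries were tested with limma 3.58.1 (R 4.3.3; trend, 1 mean per group) on log2(FPKM + 1), with Benjamini-Hochberg adjustment over all 12099 genes. Fold changes are on that scale, which understates changes of low genes. Paralog ratios were tested by exact permutation over libraries. The procedures were also run on simulated reads, drawn without an effect shared by libraries of the same replicate number. Samples with the same replicate number deviated together within each line (correlations 0.45, 0.43 and 0.72 in HMLE-Twist and 0.54, 0.23 and 0.60 in HMLE-pBp). They did not in every pair between the mock groups of the lines (0.26, 0.07 and 0.57). So the alternative with a block within each line and the paired ratio responses read the numbers as pairs within a line. The main limma fit and the main ratio tests did not use the numbers. The labels do not say what the number marks.

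All 10 members were named. From each group of other ER-to-Golgi genes, the 2 largest and the 1 smallest log2 fold changes by size in each line were named, and for each member the 2 genes with the highest correlation. The members and lists were chosen with earlier results of these data known. Alternatives were TMM factors, total reads, a pseudocount of 0.1, no filter, a mean of 5 FPKM or more, a replicate block, no gene left out, reference lengths, and leaving out each library. Paired ratio responses, permuted between the lines, were added after seeing the data.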

Additional observations from a re-analysis of the deposited data

How the results depend on the processing

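With the replicate block within each line, calls over all genes came to 4905 for salinomycin in HMLE-Twist, 4463 in HMLE-pBp and 3916 for the difference of the responses, and with 1 replicate block over all libraries to 4080 in HMLE-pBp and 3510 for the difference. Of the members, 1 was called for the difference under either block, SEC24D. The block changed no other member's call than those given beside the results. Leaving out 1 library at a time gave 1171 to 3207 calls in HMLE-pBp, lowest without HMLE-pBp mock replicate 3 (1171), salinomycin replicate 1 (1256) or mock replicate 2 (1392), and 786 to 2395 for the difference, lowest without HMLE-pBp mock replicate 3 (786), HMLE-Twist salinomycin replicate 3 (811) or 1 (812), HMLE-Twist mock replicate 2 (889), HMLE-pBp mock replicate 2 (905) or salinomycin replicate 2 (1080). Members called then numbered 6 to 8 in HMLE-Twist, 7 to 9 in HMLE-pBp, 0 for the difference, 7 to 9 between the lines under mock and 7 to 8 under salinomycin. The ratio calls held in every alternative run.

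Values near 0 changed sign in places. The difference of the responses of SAR1A was -0.01 with TMM factors. On leaving out 1 library it lay between -0.02 and 0.06 for SAR1A, -0.10 and 0.17 for SEC24A, -0.04 and 0.18 for SEC24B and -0.24 and 0.05 for SEC31A. The SEC24A/SEC24B ratio then lay between -0.01 and 0.06 for the lines and between -0.11 and 0.02 for the difference of the responses. The response lay between -0.01 and 0.18 for SEC24B, -0.04 and 0.05 for PREB and -0.06 and 0.01 for RAB1B in HMLE-pBp, and between -0.12 and 0.04 for ANXA11, -0.00 and 0.12 for CNIH1 and -0.04 and 0.09 for SCFD1 in HMLE-Twist. The cause was not tested. With total reads the share of higher calls was 57.6% under mock and 60.6% under salinomycin between the lines, beside 49.3% and 49.5%. The planned edgeR and DESeq2 tests were not run, because no deposited column holds counts. Members had 661 or more reads in each library, and each group has 3 libraries.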
